A study of Homo sapiens with 23 samples.

Results

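The 46 genes described here encode the machinery that removes the poly(A) tail and the cap of messenger RNAs and that gathers in processing bodies (P-bodies), the cytoplasmic granules of repressed mRNA. They were listed by name from knowledge of the pathway, with earlier results of these data known, out of 57875 genes listed by Ensembl identifier in each file. RNA was sequenced from HCT116 cells, a human colon cancer line grown in McCoy's 5A medium with serum at passages 12 to 18. The 5 lines were wild-type cells and cells of genotype *AGO1*-/- (*AGO1* knockout), *AGO2*-/- (*AGO2* knockout), *AGO1*-/- *AGO2*-/- (*AGO1/2* knockout) and *AGO1*-/- *AGO2*-/- *AGO3*-/- (*AGO1/2/3* knockout), with 3 replicates each and 15 samples in all. All knockout lines were made from HCT116 cells by CRISPR editing and the labels name no treatment. With 1 line for each genotype, genotype and line cannot be told apart. The paper describes 3 biological replicates, while the labels do not say that replicates came from separate cultures. The p-values therefore measure the spread between these samples.

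Argonaute (AGO) proteins carry microRNAs (miRNAs) to mRNAs and, through TNRC6 scaffold proteins, bring in the CCR4-NOT and PAN2-PAN3 deadenylases, which shorten the poly(A) tail. The shortened mRNA is bound by the LSM1 to LSM7 ring and PATL1, its cap is cleaved by DCP2 with DCP1 and EDC cofactors, and XRN1 degrades the rest from the 5′ end. RNA-binding proteins such as ZFP36 and the Pumilio proteins bring mRNAs to the same enzymes without miRNAs. The data are steady state levels of the mRNAs for these proteins and do not measure the activity of the machinery. In bulk samples, fewer cells with a transcript and less of it per cell cannot be told apart.

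Total counts ranged from 27709971 to 45271146 per sample. *AGO2* knockout replicates 1 and 2 were the deepest, at 45271146 and 44582046. *AGO1/2/3* knockout replicate 1 followed at 40567975, and then *AGO2* knockout replicate 3 at 40419152. All 46 genes passed the filter on low counts, and the lowest count of any of them in a sample was 250. Of all samples, wild-type replicate 2 lay farthest from the other libraries of its line, by a median of 0.314 on the log2 scale over all genes and 0.200 over the 46 genes. *AGO1* RNA changed by -1.89, -1.84 and -2.01 on the log2 scale in the single, double and triple knockouts of *AGO1*, and *AGO3* RNA in *AGO1/2/3* knockout cells was 46.1% of the wild-type level. *AGO2* RNA was 70.4%, 83.4% and 132% of wild type in the single, double and triple knockouts of *AGO2*, and an edited gene can still give RNA. The value of 83.4% was not called (edgeR, adjusted p = 0.0924). The paper reports that DNA sequencing verified the knockouts and that Western blots found no targeted protein in these lines. The epithelial markers *EPCAM*, *KRT8*, *KRT18*, *CDH1*, *KRT19* and *CLDN7* had at least 2476 normalised counts in each wild-type sample. In *AGO1/2/3* knockout cells *EPCAM*, *CDH1* and *CLDN7* fell to 29.9%, 8.77% and 10.2% of wild type, *KRT8* rose to 133%, and *KRT18* at 121% and *KRT19* at 101% were not called. In *AGO1/2* knockout cells *KRT8* and *KRT19* rose to 169% and 155%, and *EPCAM*, *CDH1* and *CLDN7* fell to 53.0%, 31.6% and 30.6%. The part of these changes in the results below was not tested. Leukocyte *PTPRC* and *CD3E*, endothelial *PECAM1* and fibroblast *COL1A2* and *DCN* stayed under 86 normalised counts in every sample of all 5 lines. *COL1A1*, also a fibroblast marker, was not near 0, with a mean of 794.4 normalised counts in wild-type cells.

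In wild-type cells the 46 genes spanned more than 2 orders of magnitude when expressed as normalised counts per kilobase of exon, the scale used here to compare levels between genes. *PABPC1*, the main cytoplasmic poly(A)-binding protein, was highest with 9646 ± 732 normalised counts per kilobase (SD, n = 3). It was followed by the AU-rich element binding proteins *ZFP36L1* at 1925 ± 179.1 and *ZFP36* at 1733 ± 361.3, whose ranges overlapped. The scaffold *CNOT1*, at 1278 ± 68.32, and the RNA helicase *DDX6*, at 1131 ± 65.03, came next. The lowest levels per kilobase were those of the poly(A) ribonuclease *PARN* at 133.3 ± 1.768, the decapping cofactor *DCP1B* at 96.99 ± 11.01 and the scavenger decapping enzyme *DCPS* at 40.06 ± 6.459. The median of the 46 genes was 379.8, and 39 of them lay under 1000. The length counted every annotated exon of a gene, whether or not these cells use it, so the ranks depend on the annotation. *PARN*, with 14103 bases counted, had a mean of 1880 normalised counts in wild-type cells. *LSM2*, with 1059 bases, had 759.3 and yet ranked above it per kilobase.

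**Figure D1:**
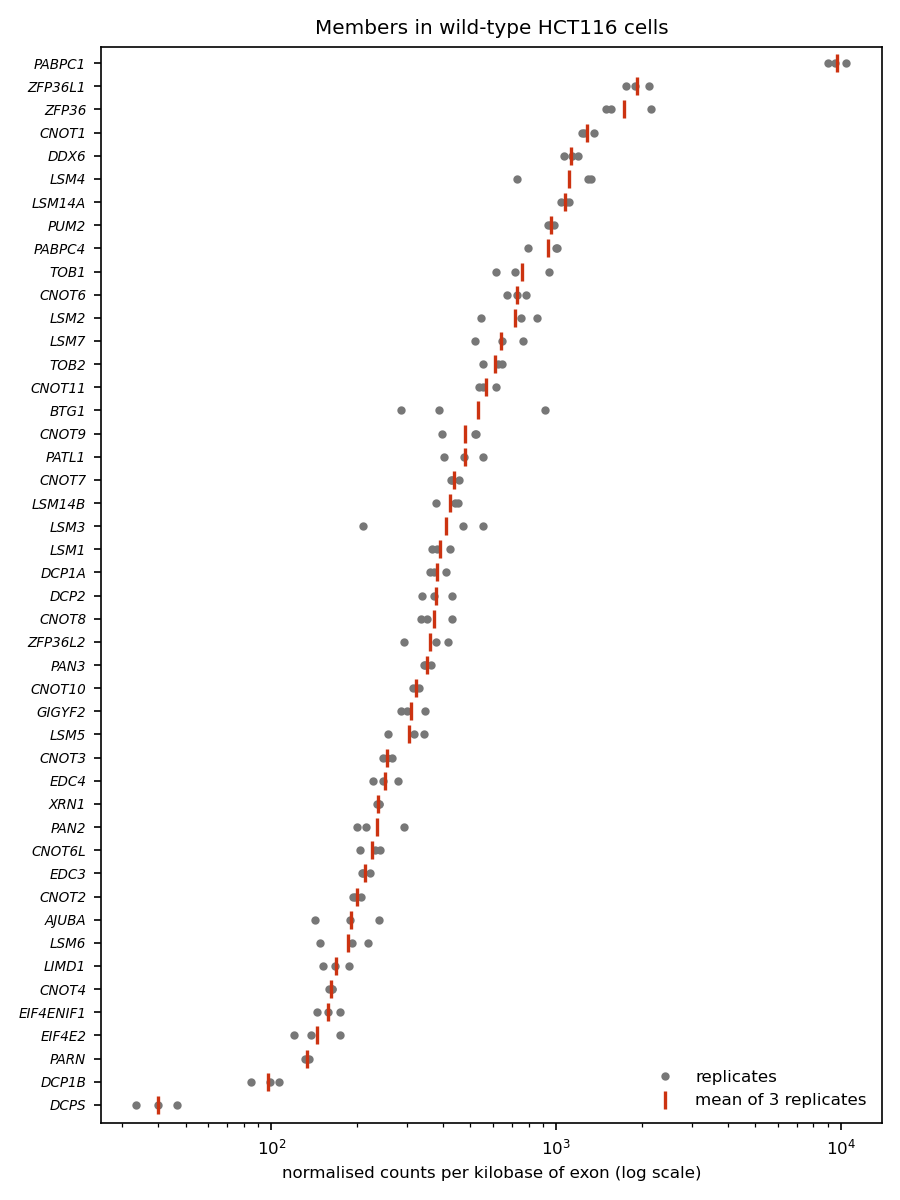
Levels of the 46 genes in wild-type HCT116 cells, as normalised counts per kilobase of exon on a log scale, with a grey point for each of 3 replicates and a red bar at the mean. *PABPC1* stands apart at 9646, and *DCPS* is lowest at 40.06.

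The mRNAs of the machinery are themselves possible targets of miRNAs and of the RNA-binding proteins it serves. Their 3′ untranslated regions (3′-UTRs) were therefore searched for the letters that pair with the seed (bases 2 to 8) of the 6 miRNAs assayed by PCR in the study's methods, which share 5 seeds. Levels of these miRNAs were not analysed here. The mature sequences from RefSeq (GRCh38.p14) are shown because the sites below are read against them, with the seed in capitals and *let-7a* and *let-7f* sharing theirs.
hsa-let-7a-5p: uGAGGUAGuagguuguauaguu
hsa-let-7f-5p: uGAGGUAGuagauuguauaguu
hsa-miR-21-5p: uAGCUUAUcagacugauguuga
hsa-miR-27a-3p: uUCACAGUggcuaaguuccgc
hsa-miR-29a-3p: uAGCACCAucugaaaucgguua
hsa-miR-125b-5p: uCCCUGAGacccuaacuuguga

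All 46 genes had a 3′-UTR in their canonical GENCODE v44 transcript, with a median length of 1772 bases against 1315 over the 14631 tested genes that had one. The match to *miR-29a-3p* (UGGUGCU) was present in 14 of the 46 genes, or 30.4%, against 15.9% of all. Matches to the other seeds were present in 3 genes for *let-7* (CUACCUC, 6.52% against 11.2%), 6 for *miR-21-5p* (AUAAGCU, 13.0% against 9.72%), 7 for *miR-27a-3p* (ACUGUGA, 15.2% against 17.6%) and 6 for *miR-125b-5p* (CUCAGGG, 13.0% against 16.5%). The AU-rich core UAUUUAU, the kind of element bound by ZFP36 proteins, was present in 22 genes (47.8% against 35.3%). The Pumilio element UGUANAUA was present in 18 (39.1% against 29.0%). Only the sense strand of the transcript was searched, no motif was excluded for overlapping another, and the longer 3′-UTRs of these genes were not corrected for in these shares. A match describes the letters and does not show a site in use.

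Sites are shown for 4 of the genes whose RNA changed most, with the matching letters in capitals, 14 bases before them and 1 after. *DCP2* has the longest 3′-UTR of these, with 8711 bases, and holds 2 matches to *miR-27a-3p* and 2 to *miR-29a-3p*, on the plus strand of GRCh38. The AU-rich core is also present 6 times in *DCP2* and 1 time each in *PAN2* and *BTG1*, and the Pumilio element 2 times in *DCP2* and 4 times in *BTG1*. Of all these elements, the 3 cores of *ZFP36* are written out as examples.
*DCP2*, *miR-27a-3p*, chr5:113016056-113016077: ccaaggugcagugcACUGUGAa
*DCP2*, *miR-27a-3p*, chr5:113019246-113019267: aguaaagguucucaACUGUGAa
*DCP2*, *miR-29a-3p*, chr5:113015006-113015027: aagugucacccuuuUGGUGCUa
*DCP2*, *miR-29a-3p*, chr5:113020406-113020427: ugguauacaguucuUGGUGCUc
*PAN2*, *miR-29a-3p*, minus strand, chr12:56317469-56317490: ucuagggucacagaUGGUGCUa
*PAN2*, *miR-125b-5p*, minus strand, chr12:56317490-56317511: caguacuggacgugCUCAGGGu
*BTG1*, *miR-21-5p*, minus strand, chr12:92142621-92142642: uacauaaaaaucacAUAAGCUg
*ZFP36*, *miR-29a-3p*, plus strand, chr19:39409103-39409124: cugagggggaauccUGGUGCUc
*ZFP36*, AU-rich, plus strand, chr19:39409178-39409199: aucaaugggcccuuUAUUUAUg
*ZFP36*, AU-rich, plus strand, chr19:39409193-39409214: auuuaugacgacuuUAUUUAUu
*ZFP36*, AU-rich, plus strand, chr19:39409218-39409239: auaugauuuuauagUAUUUAUa

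Among tested genes with a 3′-UTR within 25% of its length, the share holding at least 1 match to *miR-29a-3p* was 49.0% for *DCP2* and 7.67% for *ZFP36*, so the letters were common in regions as long as that of *DCP2*. For *DCP2* the shares were 53.0% for *miR-27a-3p* and 83.1% for the AU-rich core. The share with an AU-rich core was 20.9% among regions as long as that of *ZFP36*, which holds 3. *PATL1*, with 1674 bases, held no match to any of the 5 seeds. *PABPC1* and *LSM7*, also strongly changed, had short 3′-UTRs of 445 and 159 bases and held none of the elements searched.

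The first question was how many of these genes changed when each *AGO* gene was lost. Genes were called where the quasi-likelihood test of edgeR, adjusted by the Benjamini-Hochberg method over 22842 genes, gave a p of 0.05 or under. In *AGO1* knockout cells, 4 of the 46 genes (8.70%) were called against 8.68% of all genes tested. They were *ZFP36L1* and *DCP1B*, which rose (2 genes, against 3.17% of all genes called higher), and *PAN2* and *ZFP36*, which fell (2 genes, against 5.50%). The share among the 46 genes was close to that of all genes.

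In *AGO2* knockout cells, 15 of the 46 genes (32.6%) were called against 19.3% of all genes. Of these, 11 rose (23.9% against 8.55%) and 4 fell (8.70% against 10.8%). The median log2 fold change of the 46 genes was 0.18, while that of all genes was -0.02. The higher calls came from several roles, with *LSM1*, *LSM5* and *LSM6* of the LSM ring, *CNOT9* and *CNOT11* of CCR4-NOT, *DCP2*, *PATL1* and *DDX6* of the decapping group, *EIF4E2*, *LIMD1* and *ZFP36L2*. Most of them were small, between 0.30 and 0.73 on the log2 scale, and their number depended on the fit. It was 2 when only the 6 samples of the 2 lines entered the fit and 4, with 6 lower, when libraries were scaled by total counts alone. That scaling moved the median of all genes by -0.12. Column names in the *AGO2* knockout files point to a different mode of quantification from that of the other samples, so for every value of this line mode and genotype cannot be told apart. Leaving out 1 library at a time gave 2 to 14 higher calls, with 7 or fewer when any of 9 libraries was left out (the 3 of *AGO2*, the 3 of *AGO1/2/3* and replicate 2 of *AGO1/2* knockout cells, and wild-type replicates 1 and 2) and the fewest without *AGO2* knockout replicate 2.

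In *AGO1/2* knockout cells, 9 of the 46 genes (19.6%) were called against 16.7% of all genes, with 4 higher (8.70% against 8.37%) and 5 lower (10.9% against 8.35%). *DCP2*, *PATL1*, *EIF4E2* and *TOB1* rose, and *BTG1*, *PAN2*, *PABPC1*, *ZFP36* and *ZFP36L2* fell. With scaling by total counts alone the counts were 3 higher and 10 lower. There were 2 higher calls without replicate 1 or 2 of *AGO1/2* knockout or of wild-type cells, and 3 lower calls without *AGO1/2* knockout replicate 2.

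The loss of all 3 genes gave the most calls. In *AGO1/2/3* knockout cells 25 of the 46 genes (54.3%) were called, against 40.1% of all genes. There were 10 higher (21.7% against 20.3%) and 15 lower (32.6% against 19.8%). The median log2 fold change was 0.04 for the 46 genes and -0.01 for all genes, both near 0. Scaling by total counts alone, which moved the median of all genes by -0.14, gave 5 higher and 17 lower. Of the 25 calls, 15 held in all 15 fits that left out 1 library, against 3 of the 15 calls in *AGO2*, 5 of 9 in *AGO1/2* and 4 of 4 in *AGO1* knockout cells. There were 5, 4, 5 and 6 higher calls without *AGO1/2/3* knockout replicate 1, the same line's replicate 3, wild-type replicate 1 and wild-type replicate 2. The median standard error was 0.11 for the 46 genes and 0.20 for all genes, so that smaller changes could be called among these well expressed genes than in the whole transcriptome.

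The replicates of *AGO1/2/3* knockout cells did not overlap those of wild-type cells for 35 of the 46 genes, against 50.0% of all genes. The corresponding numbers of genes were 9 in *AGO1* (all genes 23.1%), 27 in *AGO2* (37.1%) and 15 in *AGO1/2* knockout cells (29.7%).

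**Figure D2:**
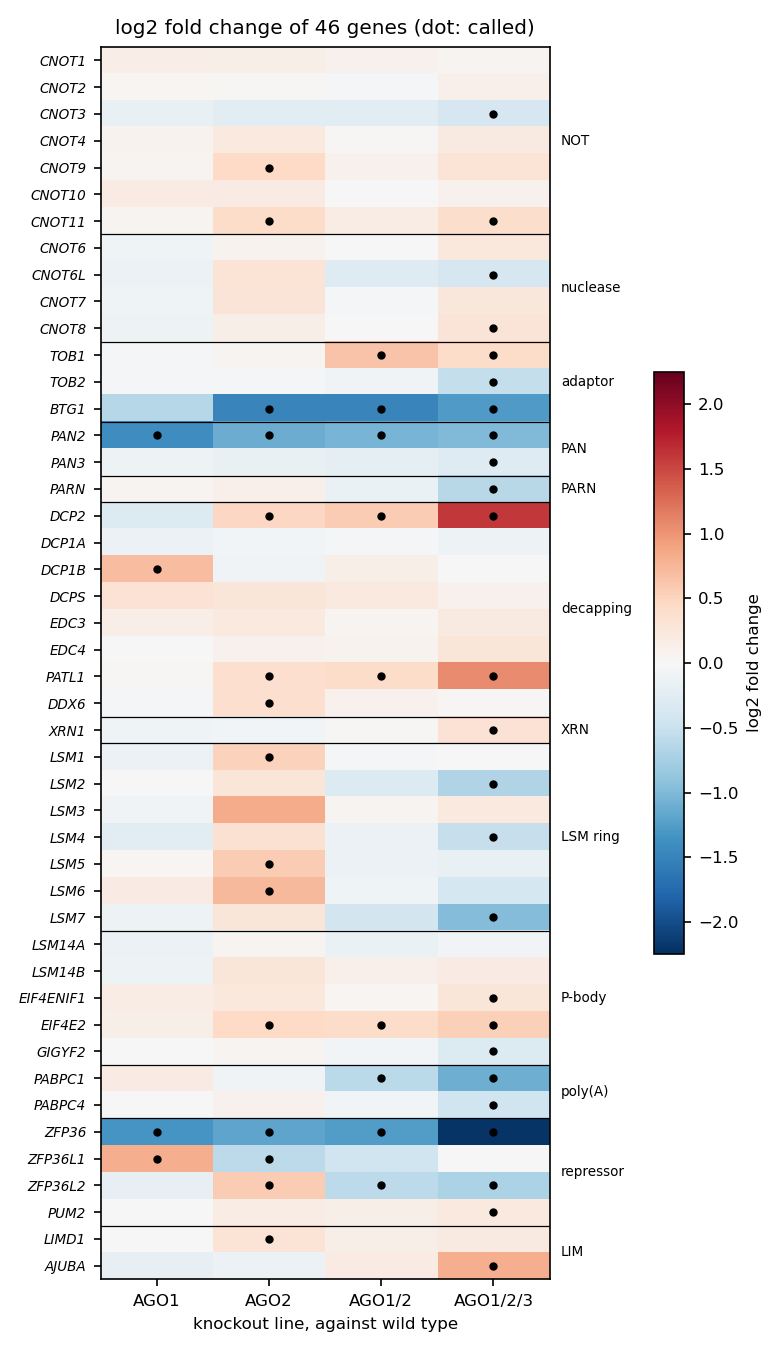
Log2 fold change of each of the 46 genes (rows, grouped by role) in the 4 knockout lines against wild-type cells (columns), from blue for lower to red for higher, with a dot where the gene was called. *ZFP36* in *AGO1/2/3* knockout cells is the lowest value at -2.21, and *DCP2* in the same cells is the highest at 1.59.

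Over the 4 knockout lines, 13 of the 46 genes (28.3%) were called in none, against 47.4% of all genes. They include the scaffold *CNOT1*, *CNOT2*, *CNOT4*, *CNOT10*, the nucleases *CNOT6* and *CNOT7*, the decapping cofactors *DCP1A*, *EDC3* and *EDC4*, *DCPS*, *LSM3*, *LSM14A* and *LSM14B*. *PAN2* and *ZFP36* were called in all 4 (4.35% of the 46 genes, against 1.85% of all). There were 15 genes called in *AGO1/2/3* knockout cells and in no other line (32.6%, against 19.0% of all genes), and whether their change differed from that in the other lines is not given by this count. They were *CNOT3*, *CNOT6L*, *CNOT8*, *TOB2*, *PAN3*, *PARN*, *XRN1*, *LSM2*, *LSM4*, *LSM7*, *EIF4ENIF1*, *GIGYF2*, *PABPC4*, *PUM2* and *AJUBA*. All 4 comparisons share the wild-type samples. *ZFP36L1* and *ZFP36L2* were called in both directions, depending on the line.

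Loss of *AGO3* in addition to *AGO1* and *AGO2* was addressed by comparing *AGO1/2/3* with *AGO1/2* knockout cells directly. Of the 46 genes 10 (21.7%) were called, against 22.0% of all genes. *DCP2*, *PATL1*, *CNOT8* and *XRN1* were higher (8.70% against 11.9%), and *ZFP36*, *LSM7*, *PABPC1*, *PARN*, *TOB2* and *PABPC4* were lower (13.0% against 10.0%). Scaling by total counts alone gave 2 higher and 8 lower. Leaving out 1 library at a time gave 2 to 5 higher and 4 to 8 lower calls, with 2 higher without *AGO1* knockout replicate 2 or 3, *AGO2* knockout replicate 3, *AGO1/2* knockout replicate 1 or 2 or *AGO1/2/3* knockout replicate 2 or 3.

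CCR4-NOT is the main cytoplasmic deadenylase. Of the 11 *CNOT* genes listed here 4 were called in *AGO1/2/3* knockout cells, 2 higher and 2 lower (36.4%, against 40.1% of all genes). In *AGO2* knockout cells 2 were called, both higher (18.2%, against 19.3%). *CNOT1*, the scaffold on which the other subunits assemble, had 14712, 13323 and 13569 normalised counts in the wild-type samples and 14316, 14096 and 14988 in *AGO1/2/3* knockout samples. The samples overlapped, and *CNOT1* was called in no line. *CNOT3*, which helps to recruit the complex, was lower in *AGO1/2/3* knockout cells by -0.38 (SE 0.10, adjusted p = 0.00632).

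*CNOT11*, an accessory subunit, had 1452, 1489 and 1658 normalised counts in wild-type samples and 1646, 1573 and 1609 in the *AGO1* knockout line. The *AGO2* knockout line had 1857, 2170 and 2137, the double knockout line 1808, 1712 and 1656 and the triple knockout line 1907, 1878 and 2230. The *AGO2* and *AGO1/2/3* knockout samples all lay above the wild-type samples. It changed on the log2 scale by 0.42 in *AGO2* knockout cells (SE 0.10, adjusted p = 0.00981) and 0.39 in *AGO1/2/3* knockout cells (SE 0.10, adjusted p = 0.00459). The *AGO2* call was lost without *AGO2* knockout replicate 2 (0.37, adjusted p = 0.0711) or replicate 3 (0.37, adjusted p = 0.0645), and the *AGO1/2/3* call without replicate 3 of that line (0.26, adjusted p = 0.059).

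*CNOT9*, which binds tryptophan-containing partners of the complex, had 2745, 2098 and 2756 normalised counts in wild-type samples, 3125, 2771 and 2068 without *AGO1*, 3251, 3690 and 3421 without *AGO2*, 2941, 2604 and 2572 without both and 2873, 3205 and 3285 in the *AGO1/2/3* knockout samples. The *AGO2* knockout samples were the highest group and did not overlap the wild-type samples. The log2 fold change there was 0.45 (SE 0.14, adjusted p = 0.0389), and the call was lost in 11 of 15 fits that left out 1 library, with an adjusted p of up to 0.202.

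Of the 4 nuclease subunits, the paralogues *CNOT7* and *CNOT8* and the paralogues *CNOT6* and *CNOT6L*, only *CNOT6L* and *CNOT8* were called, in *AGO1/2/3* knockout cells and in opposite directions. *CNOT8* had 1382, 1317 and 1695 normalised counts in wild-type samples. Counts were 1431, 1286 and 1328 in *AGO1*-/-, 1616, 1548 and 1640 in *AGO2*-/-, 1455, 1423 and 1505 in double and 1831, 1749 and 1792 in triple knockout samples. The *AGO1/2/3* knockout samples lay above all others. *CNOT8* was higher by 0.29 against wild type (SE 0.10, adjusted p = 0.0248) and by 0.29 against *AGO1/2* knockout cells (SE 0.10, adjusted p = 0.0396), and these calls were lost in 10 and 12 of 15 fits with 1 library left out (adjusted p up to 0.141 and 0.145). *CNOT6L* was lower by -0.37 against wild type (SE 0.12, adjusted p = 0.0204), a call lost without *AGO1/2/3* knockout replicate 3 (-0.34, adjusted p = 0.0582). *CNOT7*, on the short arm of chromosome 8, had log2 fold changes from -0.10 to 0.29 and passed the test in no line, with adjusted p between 0.0652 and 0.879.

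TOB and BTG proteins bind the CNOT7 and CNOT8 nucleases and link them to other factors, and they are known to slow proliferation. *BTG1* had 1889, 4448 and 1385 normalised counts in wild-type samples, with 1030, 1788 and 2122 in *AGO1* and 1069, 761 and 944 in *AGO2* single knockouts, 687, 774 and 1310 in the double and 1217, 1001 and 961 in the triple knockout. Wild-type replicate 2 was far above the other two, and all samples of the 3 lines without *AGO2* lay below the lowest wild-type sample. The log2 fold changes were -1.48 in *AGO2* (SE 0.37, adjusted p = 0.0152), -1.48 in *AGO1/2* (SE 0.37, adjusted p = 0.0119) and -1.28 in *AGO1/2/3* knockout cells (SE 0.37, adjusted p = 0.0114). Without wild-type replicate 2 they were -0.85, -0.85 and -0.66, with adjusted p of 0.0755, 0.0578 and 0.0816, and the calls did not hold. The call was also lost without *AGO2* knockout replicate 2 in *AGO2* knockout cells (adjusted p = 0.0691), and without *AGO1/2* knockout replicate 1 (adjusted p = 0.0525) or 2 (adjusted p = 0.0542) in *AGO1/2* knockout cells.

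*TOB1* had 1800, 1555 and 2372 normalised counts in wild-type samples. Among knockouts, those of *AGO1* had 1949, 1679 and 1978, those of *AGO2* 2071, 1841 and 2059, the double line 3155, 3001 and 2760 and the triple line 2712, 2529 and 2436. Only the lines lacking both *AGO1* and *AGO2* lay above the wild-type range. *TOB1* rose by 0.64 on the log2 scale in *AGO1/2* knockout cells (SE 0.13, adjusted p = 0.00343) and by 0.42 in *AGO1/2/3* knockout cells (SE 0.13, adjusted p = 0.0173). The latter call was lost without *AGO1/2/3* knockout replicate 1 (0.36, adjusted p = 0.0769), wild-type replicate 1 (0.36, adjusted p = 0.0799) or wild-type replicate 2 (0.27, adjusted p = 0.0998).

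*TOB2*, its paralogue, had 2410, 2707 and 2806 normalised counts in wild-type samples and 2521, 2423 and 2770 in the *AGO1* knockout line. The *AGO2* knockout line had 2642, 2497 and 2624, the double knockout line 2756, 2278 and 2459 and the triple knockout line 1873, 1919 and 1687. Below every other sample lay those of the *AGO1/2/3* knockout line. *TOB2* was lower there by -0.53 against wild type (SE 0.10, adjusted p = 0.000469) and by -0.45 against *AGO1/2* knockout cells (SE 0.10, adjusted p = 0.00368).

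PAN2 is the nuclease and PAN3 the RNA-binding partner of the other deadenylase complex, which acts early on long tails. *PAN2* had 1455, 2135 and 1559 normalised counts in wild-type samples, 570, 560 and 815 without *AGO1*, 887, 685 and 807 without *AGO2*, 830, 812 and 836 without both and 1099, 756 and 726 in the *AGO1/2/3* knockout samples. All 12 knockout samples lay below all 3 wild-type samples. The log2 fold changes were -1.40 in *AGO1* (SE 0.19, adjusted p = 0.000351), -1.11 in *AGO2* (SE 0.19, adjusted p = 0.00195), -1.05 in *AGO1/2* (SE 0.19, adjusted p = 0.0012) and -0.99 in *AGO1/2/3* knockout cells (SE 0.19, adjusted p = 0.000557). The difference between *AGO1/2/3* and *AGO1/2* knockout cells was 0.06, with an approximate 95% interval from -0.31 to 0.43. The genes within 5 Mb of *PAN2* on chromosome 12 had median log2 fold changes from -0.10 to 0.05 in the 4 lines. *PAN3* was called lower in *AGO1/2/3* knockout cells, by -0.29 (SE 0.09, adjusted p = 0.0157). It did not pass the test in *AGO2* (-0.16, adjusted p = 0.193) or *AGO1/2* knockout cells (-0.20, adjusted p = 0.132), where its samples also lay below those of the wild type, and the triple and double knockout lines differed by -0.08 (adjusted p = 0.556).

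*PARN*, a deadenylase that also trims telomerase RNA, had 1907, 1874 and 1858 normalised counts in wild-type samples. Counts were 2065, 1996 and 1850 in *AGO1*-/-, 1800, 2247 and 2053 in *AGO2*-/-, 1657, 1683 and 1754 in double and 1186, 1178 and 1304 in triple knockout samples. Its lowest 3 values were those of the triple knockout line. *PARN* was lower there by -0.62 against wild type (SE 0.09, adjusted p = 7.25e-05) and by -0.47 against *AGO1/2* knockout cells (SE 0.09, adjusted p = 0.00174).

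The largest increase belonged to *DCP2*, the enzyme that cleaves the cap. It had 4219, 3827 and 4885 normalised counts in wild-type samples, with 3932, 3799 and 2791 in *AGO1* and 5863, 5948 and 6011 in *AGO2* single knockouts, 6403, 6385 and 6399 in the double and 12605, 12747 and 13569 in the triple knockout. *AGO1* knockout and wild-type samples overlapped, the *AGO2* and *AGO1/2* knockout samples lay above both, and the *AGO1/2/3* knockout samples lay far above all. Relative to wild type it changed by -0.30 on the log2 scale without *AGO1* (adjusted p = 0.149), 0.46 in *AGO2* (SE 0.12, adjusted p = 0.0179), 0.57 in *AGO1/2* (SE 0.12, adjusted p = 0.00405) and 1.59 in *AGO1/2/3* knockout cells (SE 0.12, adjusted p = 1.04e-07), where it was 3.01-fold higher. Between *AGO1/2/3* and *AGO1/2* knockout cells *DCP2* differed by 1.02 (SE 0.12, adjusted p = 2.37e-05). The call in *AGO2* knockout cells was lost when any of 4 libraries was left out, namely *AGO2* knockout replicates 2 and 3 and wild-type replicates 1 and 2, with a log2 fold change of 0.36 to 0.54 over the 15 such fits and an adjusted p of up to 0.101.

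*DCP2* lies on chromosome 5 from 112976702 to 113022195 on the plus strand and overlaps *MCC* on the minus strand, which had 46.5% of its normalised counts in wild-type cells. The library kit keeps strand, and whether the counting used it is not given in the sources used here. *MCC* changed by -0.36 in *AGO1/2/3* knockout cells (adjusted p = 0.0231), opposite to *DCP2*. The median over genes within 5 Mb of *DCP2* was -0.21 on the same scale.

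*PATL1*, which bridges the LSM ring and the decapping enzyme, was called in the same 3 lines as *DCP2*. It had 2057, 1754 and 2406 normalised counts in wild-type samples. Among knockouts, those of *AGO1* had 2314, 2095 and 1956, those of *AGO2* 2619, 2781 and 2673, the double line 2952, 2704 and 2636 and the triple line 4091, 4286 and 4610. The *AGO2* and *AGO1/2* knockout samples lay just above the wild-type range and overlapped each other, and the *AGO1/2/3* knockout samples lay above all. It changed on the log2 scale by 0.03 in *AGO1* (adjusted p = 0.898), 0.38 in *AGO2* (SE 0.11, adjusted p = 0.0296), 0.42 in *AGO1/2* (SE 0.11, adjusted p = 0.0174) and 1.06 in *AGO1/2/3* knockout cells (SE 0.11, adjusted p = 2.44e-06). The last was 0.65 above *AGO1/2* knockout cells (SE 0.11, adjusted p = 0.000631). In *AGO2* knockout cells the call was lost in 8 of 15 fits with 1 library left out (adjusted p up to 0.17). In *AGO1/2* knockout cells it was lost without replicate 1 or 2 of that line or of the wild type, with an adjusted p of up to 0.0947.

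The other decapping genes had log2 fold changes from -0.11 to 0.28 in *AGO1/2/3* knockout cells and did not pass the test there. *DCP1B*, a partner that stimulates DCP2, had 392, 492 and 457 normalised counts in wild-type samples and 764, 725 and 695 in the *AGO1* knockout line. The *AGO2* knockout line had 474, 363 and 431, the double knockout line 517, 501 and 445 and the triple knockout line 468, 457 and 419. The *AGO1* knockout samples alone lay above the wild-type range in all 3 replicates, with a log2 fold change of 0.70 (SE 0.12, adjusted p = 0.00178). Its paralogue *DCP1A* was called in no line. *DDX6*, the helicase that links deadenylation to decapping, was higher in *AGO2* knockout cells by 0.38 (SE 0.10, adjusted p = 0.0203). That call was lost in 3 of 15 fits with 1 library left out. The log2 fold change of *DDX6* in *AGO1/2/3* knockout cells was 0.02, with an approximate 95% interval from -0.18 to 0.22.

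*XRN1*, the exonuclease that degrades decapped mRNA, had 2857, 2822 and 2859 normalised counts in wild-type samples, 2572, 2614 and 2770 without *AGO1*, 2968, 2488 and 2671 without *AGO2*, 2485, 2946 and 3237 without both and 3675, 3503 and 3557 in the *AGO1/2/3* knockout samples. The *AGO1/2/3* knockout samples were the highest. It was higher by 0.33 against wild type (SE 0.10, adjusted p = 0.015) and by 0.31 against *AGO1/2* knockout cells (SE 0.10, adjusted p = 0.0373). These calls were lost in 4 and 10 of 15 fits with 1 library left out, with an adjusted p of up to 0.0664 and 0.178.

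**Figure D3:**
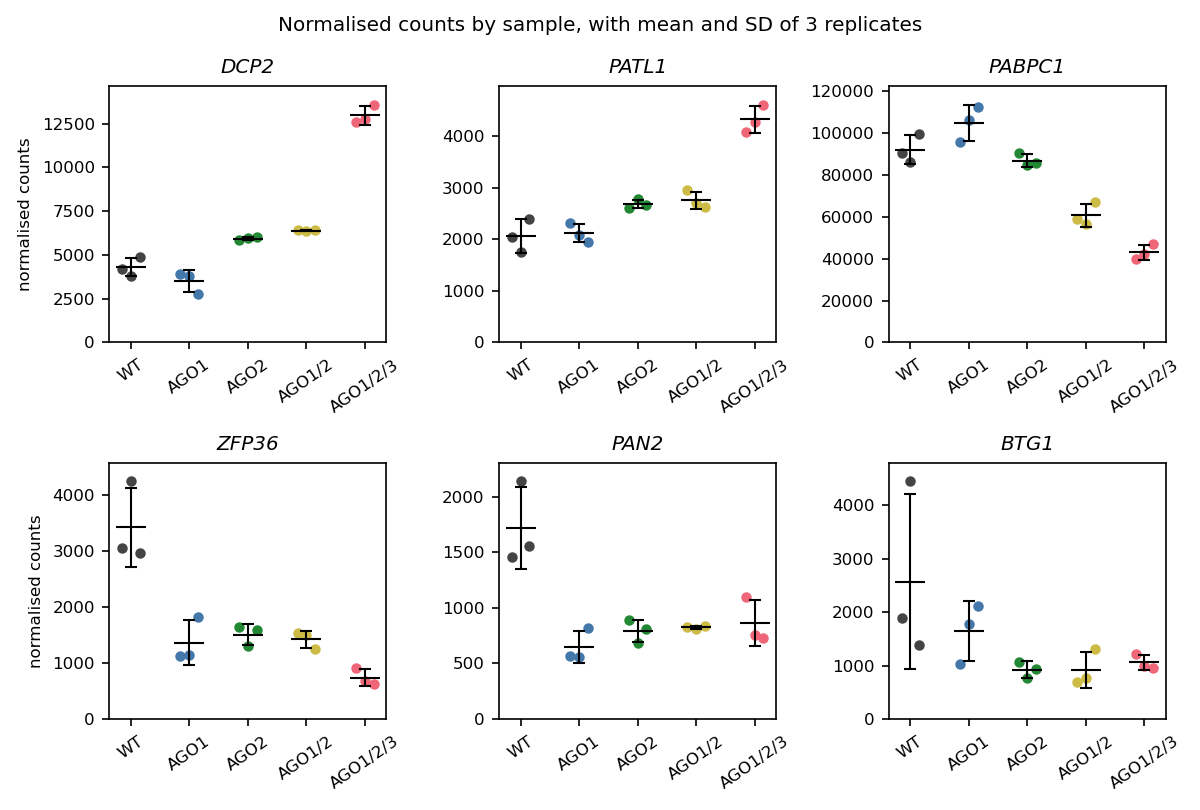
Normalised counts of *DCP2*, *PATL1*, *PABPC1*, *ZFP36*, *PAN2* and *BTG1* in each of the 15 samples (points) by line, with the mean and SD of 3 replicates, on axes that start at 0. *DCP2* reaches 12605 to 13569 in *AGO1/2/3* knockout cells, and wild-type replicate 2 of *BTG1* stands at 4448.

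The 7 LSM genes, whose proteins form the ring that binds deadenylated 3′ ends (the LSM2 to LSM7 proteins also serve in the nuclear ring of the U6 small nuclear RNA), were called in the *AGO2* and *AGO1/2/3* knockout lines. In *AGO2* knockout cells 3 of 7 were called higher, against 8.55% of all genes, and none lower, and the median of the 7 was 0.52 on the log2 scale. In *AGO1/2/3* knockout cells 3 of 7 were called lower, against 19.8% of all genes, and none higher, with a median of -0.39. In *AGO1* and *AGO1/2* knockout cells 0 of 7 were called by edgeR (0 and 2 at an unadjusted p under 0.05) and 0 of 7 by DESeq2, and the medians were -0.08 and -0.13.

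*LSM6* had 765, 589 and 865 normalised counts in wild-type samples. Counts were 991, 847 and 671 in *AGO1*-/-, 1204, 1260 and 1212 in *AGO2*-/-, 781, 590 and 695 in double and 551, 591 and 551 in triple knockout samples. The *AGO2* knockout samples lay above all others, by 0.73 on the log2 scale against wild type (SE 0.15, adjusted p = 0.0065). *LSM5* had 1488, 1201 and 1608 normalised counts in wild-type samples, with 1633, 1563 and 1222 in *AGO1* and 1913, 2385 and 2120 in *AGO2* single knockouts, 1433, 1165 and 1315 in the double and 1218, 1233 and 1402 in the triple knockout. It was again highest in *AGO2* knockout cells, by 0.58 (SE 0.14, adjusted p = 0.0118), and the call was lost without *AGO2* knockout replicate 2 (0.48, adjusted p = 0.08) or wild-type replicate 2 (0.44, adjusted p = 0.069).

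*LSM1*, the subunit that gives the cytoplasmic ring its identity, had 642, 616 and 709 normalised counts in wild-type samples. Among knockouts, those of *AGO1* had 683, 632 and 474, those of *AGO2* 754, 1105 and 953, the double line 777, 616 and 544 and the triple line 568, 668 and 749. The *AGO2* knockout samples lay above the wild-type samples, by 0.52 (SE 0.17, adjusted p = 0.0466). That call was lost in 10 of 15 fits with 1 library left out, with an adjusted p of up to 0.237. *LSM1* lies on the short arm of chromosome 8 and overlaps *BAG4* on the opposite strand, which had 273% of its level and was itself higher by 0.52 in *AGO2* knockout cells (adjusted p = 0.00783), so that the value of *LSM1* is uncertain if counting ignored strand.

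*LSM7* had 1085, 875 and 1287 normalised counts in wild-type samples and 1196, 1008 and 795 in the *AGO1* knockout line. The *AGO2* knockout line had 1219, 1388 and 1307, the double knockout line 909, 762 and 775 and the triple knockout line 549, 573 and 524. All 3 triple knockout samples lay below every other sample. *LSM7* was lower there by -0.98 against wild type (SE 0.15, adjusted p = 0.000106) and by -0.57 against *AGO1/2* knockout cells (SE 0.15, adjusted p = 0.0138), the latter not passing the test without *AGO1/2* knockout replicate 1 (-0.49, adjusted p = 0.0552).

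*LSM2* had 796, 577 and 906 normalised counts in wild-type samples, 833, 750 and 699 without *AGO1*, 838, 936 and 983 without *AGO2*, 644, 586 and 626 without both and 478, 461 and 480 in the *AGO1/2/3* knockout samples. It was lowest in *AGO1/2/3* knockout cells, by -0.68 (SE 0.14, adjusted p = 0.000916). *LSM4* was also called lower there, by -0.52 (SE 0.20, adjusted p = 0.0483), although wild-type replicate 2 with 2078 normalised counts lay below the *AGO1/2/3* knockout samples of 2165, 2162 and 2344, and the call was lost in 9 of 15 fits with 1 library left out (adjusted p up to 0.181).

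The LSM genes also varied between libraries of a line. Their summed level was 10145, 6638 and 10914 normalised counts in the wild-type samples and 10322, 9082 and 6663 in *AGO1* knockout samples, so that wild-type replicate 2 and *AGO1* knockout replicate 3 were the lowest of the 15. The *AGO2* knockout samples summed to 12041, 13779 and 13248, the double knockout samples to 9750, 7412 and 8080 and the triple knockout samples to 7048, 7256 and 7770. *LSM3* showed the widest spread, with 1581, 702 and 1855 normalised counts in the wild-type samples, and its increase of 0.84 in *AGO2* knockout cells had an adjusted p of 0.0736.

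**Figure D4:**
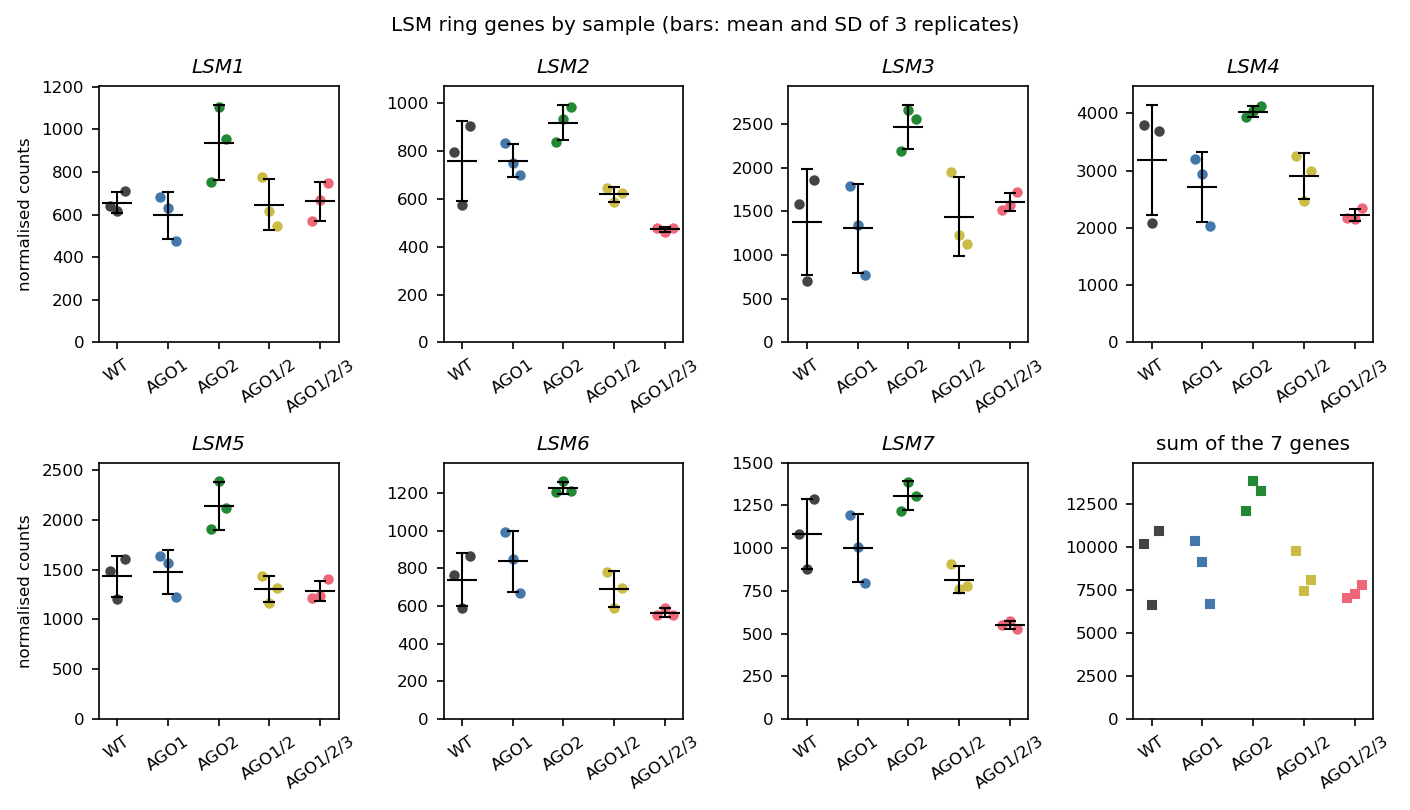
Normalised counts of *LSM1* to *LSM7* in each of the 15 samples (points, replicates 1 to 3 from left to right) by line, with the mean and SD of 3 replicates, and in the last panel the sum of the 7 genes per sample (squares). The *AGO2* knockout samples sum to 12041 to 13779, above all others, while wild-type replicate 2 at 6638 is the lowest.

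Among P-body and repressor genes, *EIF4E2*, a cap-binding protein that blocks translation initiation together with GIGYF2, was called in the 3 lines lacking *AGO2*. It had 1580, 1380 and 2004 normalised counts in wild-type samples. Counts were 2010, 1810 and 1645 in *AGO1*-/-, 2029, 2410 and 2288 in *AGO2*-/-, 2453, 2117 and 2048 in double and 2324, 2258 and 2598 in triple knockout samples. All samples of those 3 lines lay above the highest wild-type sample, in some by little. The change on the log2 scale was 0.44 in *AGO2* (SE 0.13, adjusted p = 0.033), 0.42 in *AGO1/2* (SE 0.13, adjusted p = 0.0431) and 0.53 in *AGO1/2/3* knockout cells (SE 0.13, adjusted p = 0.00461). With 1 library left out the call was lost in 8 of 15 fits in *AGO2* and 12 of 15 in *AGO1/2* knockout cells (adjusted p up to 0.176 and 0.2), and in 0 of 15 in *AGO1/2/3* knockout cells.

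*GIGYF2*, its partner, was lower in *AGO1/2/3* knockout cells by -0.30 (SE 0.09, adjusted p = 0.0116), and *EIF4ENIF1*, which carries the cap-binding protein eIF4E to P-bodies, was higher by 0.28 (SE 0.11, adjusted p = 0.0422). With 1 library left out the call of *GIGYF2* was lost in 0 of 15 fits and that of *EIF4ENIF1* in 13 (adjusted p up to 0.217). *EIF4ENIF1* overlaps *DRG1* and *SFI1* on the opposite strand, both at more than its own level. The counts of *CNOT3*, *DCPS* and *EDC3* are uncertain in the same way, since *LENG1* and *GSEC* on the opposite strand had 11.4% and 42.6% of the levels of the first 2, and *CLK3* had more counts than *EDC3*. The P-body proteins *LSM14A* and *LSM14B* were called in no line.

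Both poly(A)-binding genes were lower in *AGO1/2/3* knockout cells. *PABPC1* had 90547, 85989 and 99709 normalised counts in wild-type samples, with 95649, 106270 and 112492 in *AGO1* and 90217, 84785 and 85476 in *AGO2* single knockouts, 58829, 56503 and 66890 in the double and 39755, 42256 and 46843 in the triple knockout. The *AGO1/2* knockout samples lay below all single knockout and wild-type samples, and the *AGO1/2/3* knockout samples below those. The log2 fold changes were -0.60 in *AGO1/2* (SE 0.10, adjusted p = 0.000923) and -1.10 in *AGO1/2/3* knockout cells (SE 0.10, adjusted p = 8.83e-07), with 0.19 and -0.08 in *AGO1* and *AGO2* knockout cells (adjusted p = 0.307 and 0.587). *AGO1/2/3* knockout cells were lower than *AGO1/2* knockout cells by -0.50 (SE 0.10, adjusted p = 0.00259).

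*PABPC1* lies on the long arm of chromosome 8, and genes of that arm were lower as a group in the same lines. In the double and triple knockout lines the 357 genes of the arm had medians of -0.51 and -0.46 on the log2 scale, against 0.02 and 0.04 over 15400 genes outside chromosome 8. Within 5 Mb of *PABPC1* the medians were -0.56 and -0.41. Between *AGO1/2/3* and *AGO1/2* knockout cells the arm's median was 0.00 and that of the neighbours 0.07, while *PABPC1* differed by -0.50. In *AGO1/2* knockout cells 40.9% of the arm's genes had a value at or below that of *PABPC1*, against 7.7% of genes outside chromosome 8. Between the triple and double lines the shares were 15.7% and 12.4%. There the -0.50 of *PABPC1* lay within the arm's 10th to 90th percentile, from -0.79 to 0.62. The part of the chromosome arm in the result was not tested further. *PABPC1* has 13 annotated pseudogenes, which held 0.0480% as many counts as the gene in wild-type cells, and reads could be split between them by the counting.

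**Figure D5:**
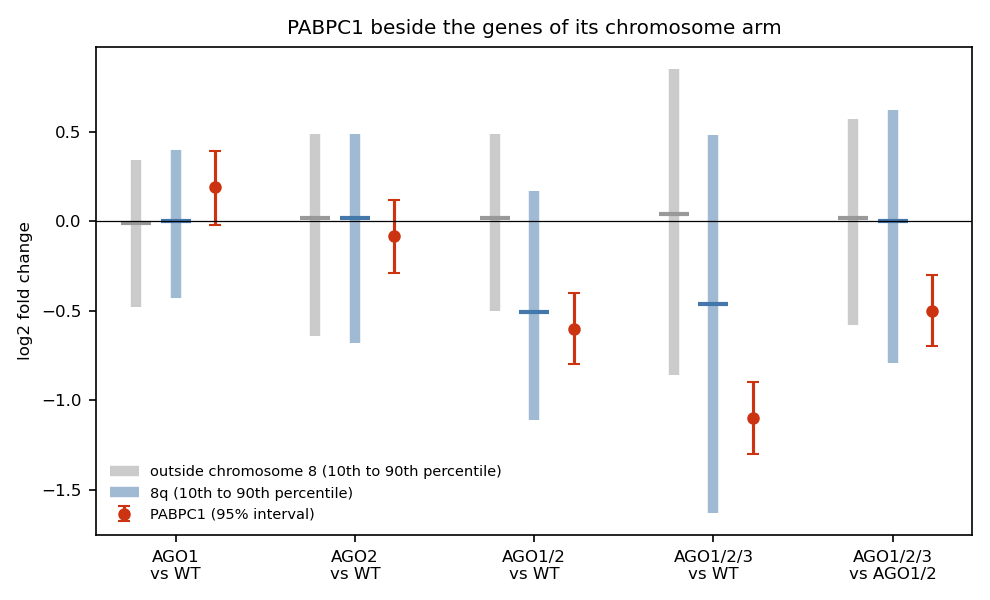
Log2 fold change of *PABPC1* (red, with its approximate 95% interval) in 5 comparisons. Beside it is the spread over genes of the long arm of chromosome 8 (blue) and outside chromosome 8 (grey). Each spread is a bar from the 10th to the 90th percentile with a line at the median. The arm's median is -0.51 and *PABPC1* -0.60 in *AGO1/2* knockout cells, and 0.00 and -0.50 between *AGO1/2/3* and *AGO1/2* knockout cells.

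*PABPC4*, on chromosome 1, had 10325, 8150 and 10263 normalised counts in wild-type samples. Among knockouts, those of *AGO1* had 10176, 9864 and 8813, those of *AGO2* 9289, 11212 and 10156, the double line 10392, 8116 and 9108 and the triple line 6536, 6847 and 7641. Below every other sample lay those of the *AGO1/2/3* knockout line. *PABPC4* was lower by -0.45 against wild type (SE 0.12, adjusted p = 0.00805) and by -0.39 against *AGO1/2* knockout cells (SE 0.12, adjusted p = 0.0311). The latter call was lost without *AGO1/2* knockout replicate 1 or 3 or *AGO1/2/3* knockout replicate 1 or 2, with an adjusted p of up to 0.136.

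The ZFP36 proteins bind AU-rich elements and recruit CCR4-NOT to inflammatory and growth-related mRNAs. *ZFP36*, the early response gene for tristetraprolin, had 3065, 4247 and 2962 normalised counts in wild-type samples and 1122, 1144 and 1824 in the *AGO1* knockout line. The *AGO2* knockout line had 1647, 1298 and 1584, the double knockout line 1529, 1497 and 1256 and the triple knockout line 918, 678 and 628. All 12 knockout samples lay below all wild-type samples, and the *AGO1/2/3* knockout samples below all others. The log2 fold changes were -1.33 in *AGO1* (SE 0.20, adjusted p = 0.000852), -1.18 in *AGO2* (SE 0.20, adjusted p = 0.00202), -1.26 in *AGO1/2* (SE 0.20, adjusted p = 0.00051) and -2.21 in *AGO1/2/3* knockout cells (SE 0.21, adjusted p = 8.31e-07), where *ZFP36* was 4.61-fold lower. *AGO1/2/3* and *AGO1/2* knockout cells differed by -0.94 (SE 0.20, adjusted p = 0.00339). These calls held in all 15 fits with 1 library left out.

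Its paralogues did not follow it. *ZFP36L1* had 12231, 13695 and 11409 normalised counts in wild-type samples, 19153, 20050 and 26270 without *AGO1*, 8667, 8223 and 7847 without *AGO2*, 6807, 9141 and 11622 without both and 12660, 13273 and 11649 in the *AGO1/2/3* knockout samples. All *AGO1* knockout samples lay above and all *AGO2* knockout samples below the wild-type samples, while the *AGO1/2* and *AGO1/2/3* knockout samples overlapped them. Relative to wild type it rose by 0.81 on the log2 scale in *AGO1* knockout cells (SE 0.16, adjusted p = 0.0061). It changed by -0.59 in *AGO2* knockout cells (SE 0.16, adjusted p = 0.0228). In *AGO1/2/3* knockout cells it changed by 0.01 (approximate 95% interval -0.31 to 0.33). The *AGO2* call was lost without *AGO2* knockout replicate 2 (adjusted p = 0.066) or 3 (adjusted p = 0.0677) or wild-type replicate 2 (adjusted p = 0.0625).

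*ZFP36L2* had 1393, 1077 and 1537 normalised counts in wild-type samples. Counts were 1106, 1121 and 1275 in *AGO1*-/-, 2391, 1846 and 1727 in *AGO2*-/-, 1001, 832 and 834 in double and 732, 839 and 890 in triple knockout samples. It lay above the wild-type range in *AGO2* knockout cells and below it in both multiple knockout lines. It changed on the log2 scale by 0.57 in *AGO2* (SE 0.15, adjusted p = 0.0171), -0.59 in *AGO1/2* (SE 0.15, adjusted p = 0.0128) and -0.71 in *AGO1/2/3* knockout cells (SE 0.15, adjusted p = 0.00139). The *AGO2* call was lost without *AGO2* knockout replicate 1 (0.39, adjusted p = 0.0849) or wild-type replicate 2 (0.42, adjusted p = 0.0946), and the *AGO1/2* call without *AGO1/2* knockout replicate 2 (-0.55, adjusted p = 0.0622) or 3 (-0.54, adjusted p = 0.0507) or wild-type replicate 3 (-0.49, adjusted p = 0.0535). *PUM2*, a Pumilio protein, was higher in *AGO1/2/3* knockout cells by 0.22 (SE 0.08, adjusted p = 0.0349), a call lost in 14 of 15 fits with 1 library left out (adjusted p up to 0.145).

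*AJUBA* and *LIMD1* are LIM-domain proteins that bind AGO and the cap-binding complex in P-bodies. *AJUBA* had 1401, 1108 and 841 normalised counts in wild-type samples, with 975, 1060 and 918 in *AGO1* and 869, 1199 and 989 in *AGO2* single knockouts, 1099, 1029 and 1689 in the double and 1464, 2065 and 2402 in the triple knockout. The *AGO1/2/3* knockout samples lay above the wild-type samples but not above every *AGO1/2* knockout sample, and the log2 fold change was 0.82 (SE 0.22, adjusted p = 0.00733). Without *AGO1/2/3* knockout replicate 3 it was 0.61 (adjusted p = 0.0577). *LIMD1* was higher in *AGO2* knockout cells by 0.30 (SE 0.10, adjusted p = 0.041), a call lost in 10 of 15 fits with 1 library left out (adjusted p up to 0.181).

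Other genes of mRNA decay, listed by function, were examined beside the 46 genes. Of 16 exosome and SKI genes, whose proteins degrade RNA from the 3′ end, 7 were called in the triple knockout line (1 higher, 6 lower). That was 43.8%, close to the 40.1% of all genes. Without *AGO2*, 7 were called (5 higher, 2 lower), or 43.8% against 19.3% of all genes. The exosome subunit *EXOSC5* was lower by -1.63 in *AGO1/2/3* knockout cells. *EXOSC4*, on the long arm of chromosome 8 like *PABPC1*, was higher by 0.54 in *AGO2* and lower by -0.76 in *AGO1/2/3* knockout cells.

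Of 20 tested genes for other RNA-binding regulators of decay, 8 were called higher and 5 lower in *AGO1/2/3* knockout cells, with a median of 0.02. The share called was 65%, against 40.1% of all genes. *SAMD4A*, a Smaug protein that recruits CCR4-NOT, was higher by 3.13, and *CPEB2*, a cytoplasmic polyadenylation element binding protein, by 3.04. *PABPC1L*, a paralogue of *PABPC1*, was lower by -2.94. The values of *SAMD4A* and *CPEB2* were larger in size than that of any of the 46 genes in the same cells. *PABPC1L* rested in part on wild-type replicate 2, with 2412, 7356 and 1099 normalised counts in wild-type samples, and its value was -1.92 without that library (adjusted p = 0.00027).

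Of 8 other deadenylase and adaptor genes 2 were called higher and 1 lower in *AGO1/2/3* knockout cells, among them *BTG3* at 0.66. Of 14 other decapping and P-body genes 2 were called higher and 6 lower, among them *DXO*, an enzyme that removes incomplete caps, at -0.69. Of 10 genes of nonsense-mediated decay 1 was called higher and 2 lower, among them *SMG5* at -0.51. The shares called in these 3 lists were 37.5%, 57.1% and 30%, against 40.1% of all genes. Over the 68 genes tested in all the lists of other decay genes, 2 were called higher and 4 lower without *AGO1* (8.82%, against 8.68% of all genes). The counts were 15 and 8 without *AGO2* (33.8% against 19.3%), 5 and 8 without both (19.1% against 16.7%), and 14 and 20 without all 3 *AGO* genes (50.0% against 40.1%).

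Whether the effect of losing *AGO1* differed with *AGO2* present or absent was tested as an interaction of both losses. Of the 46 genes 9 (19.6%) were called, against 19.7% of all genes, with 3 positive (6.52% against 11.5%) and 6 negative (13.0% against 8.26%). *PAN2* fell by 1.40 on the log2 scale when *AGO1* was lost alone and differed by 0.06 between *AGO1/2* and *AGO2* knockout cells, an interaction of 1.46 (SE 0.27, adjusted p = 0.00157). *ZFP36* showed the same order, with -1.33 and -0.08 and an interaction of 1.25 (SE 0.28, adjusted p = 0.00668). For both genes the samples of the *AGO1*, *AGO2* and *AGO1/2* knockout lines overlapped each other.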

How the data were processed

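Libraries were ribosome-depleted, stranded and paired-end. Reads passing a quality filter were aligned by the authors with STAR (hg38) and counted with Salmon. They deposited expected counts (estimated counts per gene), 1 file a sample, not scaled for depth. The submitters' processing notes name STAR 2.5.3a and Salmon 0.11.0, the annotation release was not checked here, and the file headers of the *AGO2* knockout samples name another quantification mode than the others, so that mode and genotype cannot be told apart. In each sample 30.8% to 33.8% of values were not whole, and no 2 of the 15 files held identical values.

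Expected counts were rounded. After edgeR's filterByExpr and TMM scaling, 1 model with a mean per line was fitted to all 15 samples with edgeR 4.0.16 in R 4.3.3 (quasi-likelihood test, Benjamini-Hochberg adjustment over 22842 genes). Normalised counts are at the mean library size. The 95% intervals are approximate, being the SE times a normal quantile to each side, and are narrower than the quasi-likelihood test implies. For *DCPS* in *AGO1* knockout cells against wild type the whole interval, from 0.02 to 0.62, was positive. The unadjusted p of the quasi-likelihood test was 0.0517 there. No call rests on these intervals. The biological coefficient of variation was 0.152. Tables were made with Python 3.11.15 and pandas 2.3.3. On simulated data for the comparison of *AGO1/2/3* knockout with wild-type cells, edgeR called 185 of 200 changed genes with 11 false calls. Only these 200 of 22842 genes were changed there, all well expressed and by large folds. In the data 40.1% of genes were called, and 5 of the 46 genes changed by 1 or more on the log2 scale. The simulation therefore does not give the power or the false calls for small or widespread changes. The alternatives were DESeq2 1.42.0 (the paper's tool), DESeq2's size factors, total counts alone, other filters (none, or a minimum of 10 counts in all samples), the samples of the compared lines alone, a block for the replicate number, each library left out and, chosen after seeing the data, a fit without the *AGO2* knockout samples.

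Gene positions, exon lengths and 3′-UTRs come from GENCODE v44 on GRCh38, which holds 57167 of the 57875 genes. The printed sites were checked letter by letter against the genome. The 46 genes, their roles and the other lists were chosen with earlier results of these data known. Full statistics are given for all called members of a comparison, or for the 12 with the largest change among called members whose replicates do not overlap. The 3 highest and 3 lowest members per kilobase and the members on chromosome 8 are described in any case, not always with full statistics. Other lists are given by counts with at most 3 called genes each. The eCLIP samples were not analysed here.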

Additional observations from a re-analysis of the deposited data

Results flagged for a closer look

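These 9 of the 46 genes were singled out because the effect of losing *AGO1* differed between cells with and without *AGO2* by the interaction test (edgeR, adjusted p at or under 0.05). The interaction is the log2 difference between *AGO1/2* and *AGO2* knockout cells minus that between *AGO1* knockout and wild-type cells. It was positive for *PAN2* (1.46), *ZFP36* (1.25) and *TOB1* (0.61). It was negative for *LSM6* (-1.01), *ZFP36L2* (-0.97), *LSM5* (-0.75), *PABPC1* (-0.70), *LSM2* (-0.57) and *DCP1B* (-0.50). The background share of genes with a called interaction was 19.7%.

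*ZFP36L2* changed by -0.19 with the loss of *AGO1* alone and by -1.16 between *AGO1/2* and *AGO2* knockout cells. For *LSM5* and *LSM6* the corresponding values were 0.04 and -0.71, and 0.18 and -0.83. *PABPC1* changed by 0.19 and -0.52, beside a median interaction of -0.48 over 357 genes of its chromosome arm. The *AGO2* knockout samples enter each of these values, and their different quantification mode cannot be told apart from the genotype.

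The interaction kept its call in all 15 fits with 1 library left out for *PAN2*, *ZFP36*, *LSM6*, *ZFP36L2* and *PABPC1*. It was lost in 12 of 15 for *LSM2* and *DCP1B*, in 6 of 15 for *TOB1* and, for *LSM5*, in the fit without *AGO1/2* knockout replicate 2 (-0.67). Over these fits the interaction ranged from -0.71 to -0.40 for *LSM2*, from -0.60 to -0.39 for *DCP1B* and from 0.43 to 0.74 for *TOB1*.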

How the results depend on the processing

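Of the 56 results chosen for full statistics, 33 kept direction and side of the threshold in every alternative run. The call was lost in at least 1 run for 23, and 0 changed direction. That choice leaves out smaller or overlapping calls of the *AGO2* and *AGO1/2/3* comparisons with wild type, so it favours stable results. Among all calls there, 3 of 15 and 15 of 25 held in every fit with 1 library left out. Called members of each comparison moved by over 1.5 times as follows. With total counts alone they were 4 higher in *AGO2*, 10 lower in *AGO1/2* and 5 higher in *AGO1/2/3* knockout cells against wild type, and 2 higher between *AGO1/2/3* and *AGO1/2* knockout cells. With DESeq2's Wald test there were 17 higher in *AGO2* knockout cells and 11 negative interactions. With no filter on low counts there were 6 higher in *AGO1/2/3* knockout cells. With only the lines compared higher calls were 2 without *AGO2*, 2 without *AGO1* and *AGO2* and 6 in the triple knockout line. The cause of these differences was not tested.

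Leaving out each library in turn gave, against wild type, 2 to 14 higher and 2 to 5 lower in *AGO2* knockout cells, 2 to 4 higher and 3 to 6 lower in *AGO1/2* knockout cells, and 4 to 10 higher and 13 to 16 lower in *AGO1/2/3* knockout cells. It gave 2 to 5 higher and 4 to 8 lower between *AGO1/2/3* and *AGO1/2* knockout cells, and 2 to 3 positive and 3 to 12 negative interactions. In *AGO1* knockout cells it gave 2 to 3 higher and 2 lower.

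Deviations of samples sharing a replicate number correlated with a mean r of -0.00669 (-0.218 to 0.291 over 30 pairs), against 0.00333 for other numbers. The replicate number thus showed no common pairing on average. A mean over pairs cannot show whether some samples were prepared together. With the replicate number as a block the calls were 2 higher and 2 lower in *AGO1*, 8 and 4 in *AGO2*, 3 and 5 in *AGO1/2*, 9 and 14 in *AGO1/2/3* knockout cells, 4 and 6 between *AGO1/2/3* and *AGO1/2* knockout cells, and 3 and 5 interactions. Without the *AGO2* knockout samples the *AGO1/2/3* counts were 8 higher and 14 lower.

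With 3 samples a line, changes under about 0.2 on the log2 scale were not called for any member, and the single line per genotype limits every comparison.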
